A study of Mus musculus with 2 samples.

Results

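The 7 genes described here encode CC chemokines made by myeloid cells: Ccl2, Ccl7, Ccl12, Ccl8, Ccl24, Ccl6 and Ccl9. They were taken as a named list from the 32285 genes counted, and all 7 had UMIs (unique molecular identifiers, each standing for 1 captured mRNA molecule) in both libraries. Adrenal glands of 7-week-old wild-type C57BL/6 mice were digested with Liberase and DNase, live CD45+ cells were sorted, and 1 droplet 3′ library was made for each sex. How many animals were pooled is not given in the sources used here. After filtering, 3693 cells from female mice and 2450 cells from male mice remained, with medians of 3491 and 2988 UMIs per cell, and only 2 cell barcodes occurred in both libraries. Cells were clustered with all chemokine genes held out of the clustering features, and clusters were named from marker genes, so each name stands for cells with that marker profile (macrophage-like, neutrophil-like and so on). The names covered 3596 female and 2297 male cells in 17 classes.

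CC chemokines are small secreted proteins that draw leukocytes along a gradient by binding G protein-coupled receptors. Ccl2, Ccl7 and Ccl12 are ligands of Ccr2, the receptor that monocytes use to leave the bone marrow and enter tissues. Mouse Ccl8 signals through Ccr8, found on T helper and innate lymphoid cells, Ccl24 (an eotaxin) acts on the eosinophil receptor Ccr3, and Ccl6 and Ccl9 act mainly through Ccr1. Tissue macrophages differ in the chemokines they make. Cells that express Lyve1 and Folr2 are known for Ccl8 and Ccl24, IL-4 can induce Ccl24, and Ccl2, Ccl7 and Ccl12 are inducible by inflammatory signals acting through NF-kB.

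Levels are given as CPM (the UMIs of a gene per 1000000 UMIs of the class), with exact Poisson 95% intervals. Shares of cells carry exact Clopper-Pearson 95% intervals, and ratios carry exact conditional binomial 95% intervals. All of these cover counting error only, since there was 1 library per sex and cells are not replicates of a mouse. For this reason no test was run, and a gene was called past 2-fold by size alone, among genes with at least 50 UMIs in the libraries or classes compared.

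Of the 7 genes, 6 lie on chromosome 11 in GRCm38, in 2 groups. Ccl2 (ENSMUSG00000035385, chr11:82035571-82037453, plus strand), Ccl7 (ENSMUSG00000035373, chr11:82045712-82047525, plus), Ccl12 (ENSMUSG00000035352, chr11:82101845-82103400, plus) and Ccl8 (ENSMUSG00000009185, chr11:82115185-82116799, plus) lie within 81.2 kb. Ccl9 (ENSMUSG00000019122, chr11:83572919-83578636, minus strand) and Ccl6 (ENSMUSG00000018927, chr11:83587882-83593087, minus) are neighbours within 20.2 kb. Ccl24 (ENSMUSG00000004814, chr5:135569937-135573049, minus) lies apart on chromosome 5. No 55-base stretch, the length of the cDNA read, was shared between any 2 of the 7, and 1.44% of such stretches of Ccl9 also occurred in transcripts of other genes. Ccl2 and Ccl6 each overlap a gene on the opposite strand (Gm17268 and E230016K23Rik). The sources used here do not state how the counting treated strand, so reads of these partners may not be separable.

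RefSeq promoter entries (GRCm38.p6) matched 4 of the 7 genes. They are shown because each pair of neighbours divides between cell classes below: Ccl6 and Ccl9 differ in neutrophils, and Ccl12 and Ccl8 are high in different macrophages. Each line gives the 250 bases before the start, 5′ to 3′ on the gene's strand, with motif matches in capitals.

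Ccl6: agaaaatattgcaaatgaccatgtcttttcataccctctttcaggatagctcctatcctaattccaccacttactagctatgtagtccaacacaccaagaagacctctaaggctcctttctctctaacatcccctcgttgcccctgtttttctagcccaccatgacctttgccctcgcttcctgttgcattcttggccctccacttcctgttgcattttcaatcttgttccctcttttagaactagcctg

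Ccl9: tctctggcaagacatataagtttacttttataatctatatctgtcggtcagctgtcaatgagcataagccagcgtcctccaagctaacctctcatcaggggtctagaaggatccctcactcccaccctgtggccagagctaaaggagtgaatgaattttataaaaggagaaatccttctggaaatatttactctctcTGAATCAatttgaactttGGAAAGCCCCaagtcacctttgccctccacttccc

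Ccl12: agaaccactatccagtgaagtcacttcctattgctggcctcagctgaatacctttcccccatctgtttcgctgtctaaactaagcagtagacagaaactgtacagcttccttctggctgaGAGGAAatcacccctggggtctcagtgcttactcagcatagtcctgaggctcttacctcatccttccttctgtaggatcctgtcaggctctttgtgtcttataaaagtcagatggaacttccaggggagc

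Ccl8: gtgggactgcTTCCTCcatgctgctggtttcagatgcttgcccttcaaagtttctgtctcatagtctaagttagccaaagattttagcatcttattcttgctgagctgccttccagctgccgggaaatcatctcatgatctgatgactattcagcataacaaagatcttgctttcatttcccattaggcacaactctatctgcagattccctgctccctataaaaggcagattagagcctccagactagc

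The windows are chr11:83593088-83593337 for Ccl6, chr11:83578637-83578886 for Ccl9 (both minus strand), chr11:82101595-82101844 for Ccl12 and chr11:82114935-82115184 for Ccl8 (both plus). Both strands were searched for GAGGAA (the core bound by PU.1, the myeloid lineage factor), TGANTCA (AP-1), the STAT6 motif, TTCNNNGAA (the spacing of other STATs), TTNNGCAA (C/EBP) and the kappa B consensus. Of the 32851 promoters of the same length, 23.3%, 6.75%, 5.85%, 7.02%, 9.56% and 7.25% held these, in that order. The Ccl12 window held GAGGAA at -130 and the Ccl8 window held it on the reverse strand at -240. The Ccl9 window held the AP-1 letters at -53 and a kappa B match on the reverse strand at -35, which do not overlap. The Ccl6 window held none of the 6 patterns. These are matches of letters in one window, and binding was not measured.

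The macrophage clusters were read in groups. Lyve1-high macrophages (98 female and 170 male cells) held Lyve1, Folr2 and Cd163. The other macrophages (638 and 527 cells) are told apart here by a leading gene: Slc40a1, the iron exporter (190 and 124 cells), Tmem119 (248 and 195) and Aif1 (200 and 208). Aldh1a2-high cells (86 and 101), with Retnla, Fn1 and Ear2, were named from their own list, but none of the 10 general macrophage markers was raised in them. Among the lists of broad cell types they scored highest, though low, for dendritic cells, with 1 of 11 genes raised. Their C1qa level was 472 CPM in the female and 620 CPM in the male library, against 4296 and 5030 CPM in Lyve1-high macrophages, and Mertk was at 14.1 and 23.3 CPM. They are kept as a class of their own, and the female to male ratios for all macrophages are given with and without them. The markers of the 2 classes were not exclusive. The 6 genes of the Aldh1a2-high list summed to 12429 and 10353 CPM in Lyve1-high macrophages, above the sums of the Lyve1-high list there (3956 and 6556 CPM), against 26375 and 31684 CPM in Aldh1a2-high cells and between 102 and 187 CPM in the 3 groups of other macrophages. Retnla, a gene of alternative activation, gave 10071 and 9002 CPM of that sum, while Fn1 (fibronectin) had a UMI in 13 of 98 and 14 of 170 Lyve1-high macrophages, against 83 of 86 and 97 of 101 Aldh1a2-high cells. The part of this overlap in the Ccl24, Ccl6 and Ccl9 levels of Lyve1-high macrophages was not tested.

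Ccl6 and Ccl9 were the most abundant of the chemokines in counts, and both were highest in Aldh1a2-high cells. Ccl6 reached 3435 CPM (3222 to 3657) in female and 3521 CPM (3345 to 3703) in male Aldh1a2-high cells. Neutrophils came next with 2824 and 2877 CPM, and Lyve1-high macrophages followed with 2853 and 2604 CPM. The library ranges of these last classes overlapped, so their order is not resolved. Chil3 monocytes (the classical type) held 1087 and 1009 CPM, Cd209a dendritic cells 508 and 704 CPM, and Ace monocytes (the nonclassical type) 640 and 472 CPM. In the 3 groups of other macrophages Ccl6 lay between 223 and 411 CPM. All lymphocytes as 1 pool held 9.49 CPM in the female and 8.36 CPM in the male library.

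Of the Aldh1a2-high cells, 82 of 86 in the female (95.3%) and 96 of 101 in the male library (95%) had a Ccl6 UMI. Among lymphocytes, which should lack it and serve as the background of free RNA, the share was 2.95% in each library at greater depth (medians of 3629 and 3597 UMIs, against 2815 and 3282 in Aldh1a2-high cells). With 1000 UMIs drawn from each cell the shares were 89.5% and 93.7% against 0.80% and 1.14%. Other macrophages remained between these, with 21.8% and 25.3% after the draw and 54.7% and 56.5% before it.

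Ccl9 was also highest in Aldh1a2-high cells and then in Lyve1-high macrophages. Its level was 2393 CPM (2216 to 2580) in female and 2244 CPM (2104 to 2390) in male Aldh1a2-high cells, and 1447 and 1303 CPM in Lyve1-high macrophages. Chil3 monocytes (707 and 597 CPM) and Cd209a dendritic cells (500 and 707 CPM) came next and overlapped in range. Other macrophages held 273 and 257 CPM, with Tmem119 macrophages (298 and 264 CPM) above Slc40a1 macrophages (230 and 159 CPM), whereas for Ccl6 Slc40a1 macrophages (283 and 288 CPM) were above Tmem119 macrophages (223 and 243 CPM). Lymphocytes held 7.62 and 13.7 CPM of Ccl9. Both genes were detected in the same Aldh1a2-high cells for the most part, with a UMI of each in 81 of 86 female and 92 of 101 male cells.

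**Figure D1:**
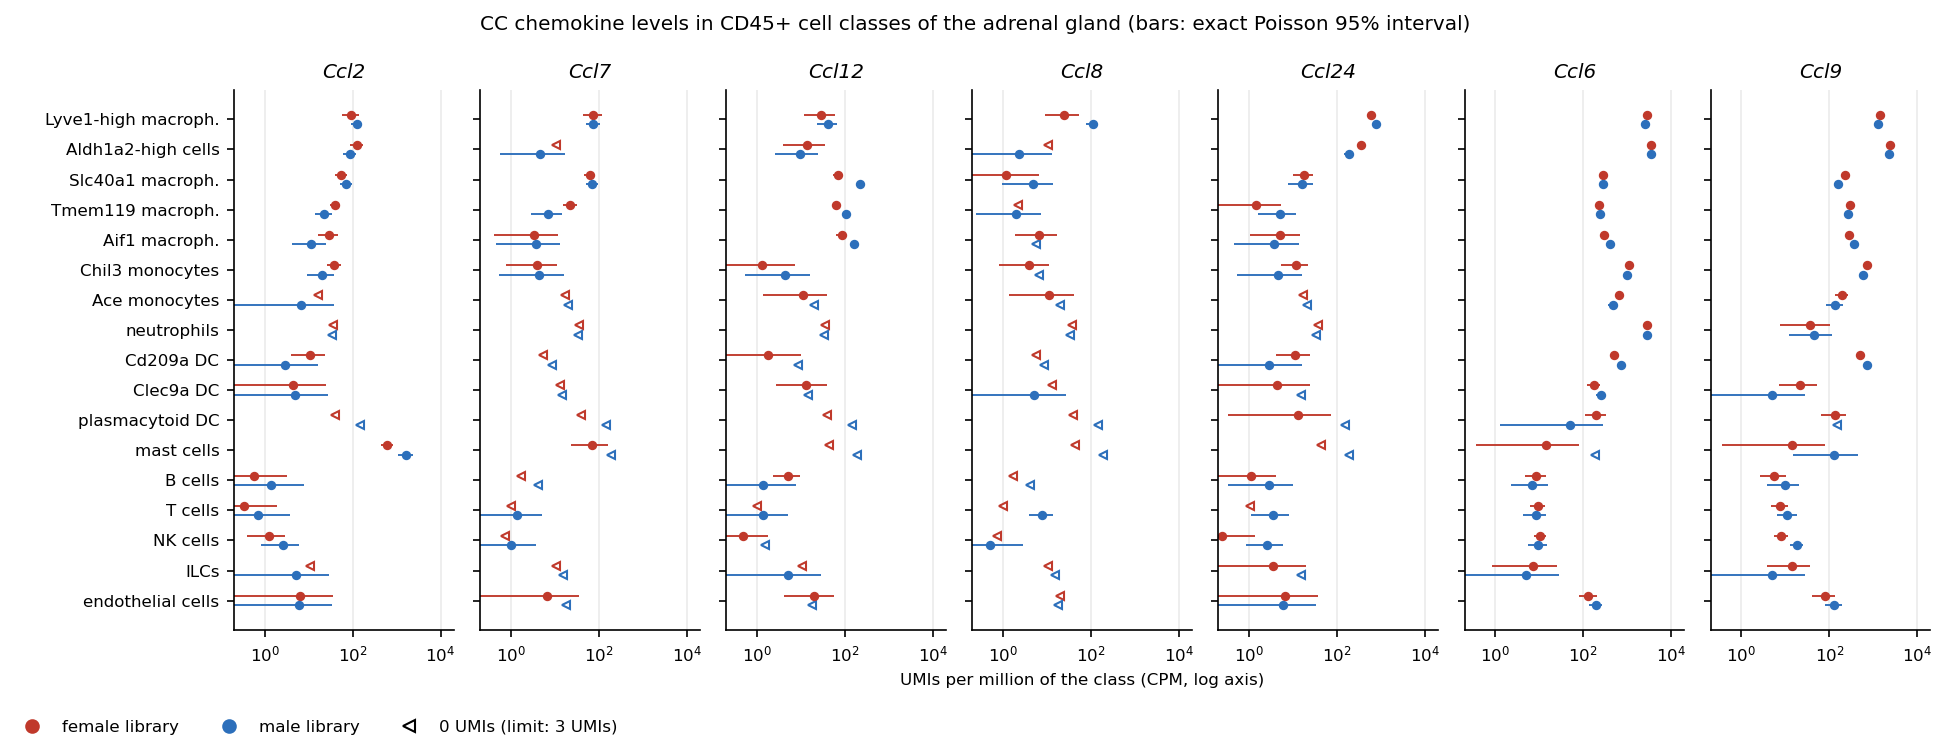
Level of each chemokine (one panel per gene; horizontal log axis, CPM) in 17 cell classes of the female and male library, with exact Poisson 95% intervals as bars and open triangles where no UMI was counted, placed at the limit that 3 UMIs would give. Ccl6 and Ccl9 are spread over the myeloid classes, Ccl24 and Ccl8 stand out in Lyve1-high macrophages, Ccl12 in the other macrophages and Ccl2 in mast cells.

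Neutrophils separated the 2 neighbours. They held 234 and 256 UMIs of Ccl6 but 3 and 4 UMIs of Ccl9, which gives Ccl9 levels of 36.2 and 45.0 CPM. The ratio of Ccl6 to Ccl9 UMIs was 78.0 (26.4 to 381) in female and 64.0 (24.7 to 237) in male neutrophils. It was 1.97 and 2.00 in Lyve1-high macrophages, 1.44 and 1.57 in Aldh1a2-high cells and 1.54 and 1.69 in Chil3 monocytes. A ratio of UMIs of 2 genes also holds how well each is captured, so it is read here only between classes. Clec9a dendritic cells, the cross-presenting type, also held little Ccl9 (5 and 1 UMIs) beside 39 and 52 UMIs of Ccl6, with ratios of 7.80 (3.07 to 25.4) and 52.0 (8.93 to 2093). Cd209a dendritic cells, by contrast, held the genes in ratios of 1.01 and 0.996. Ace monocytes stood between, at 3.29 and 3.5. The lowest ratios among the myeloid classes with at least 50 UMIs of each gene were those of Tmem119 macrophages, 0.746 and 0.921, where Ccl9 counts were above those of Ccl6 in both libraries (the male interval, 0.771 to 1.10, includes 1).

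**Figure D2:**
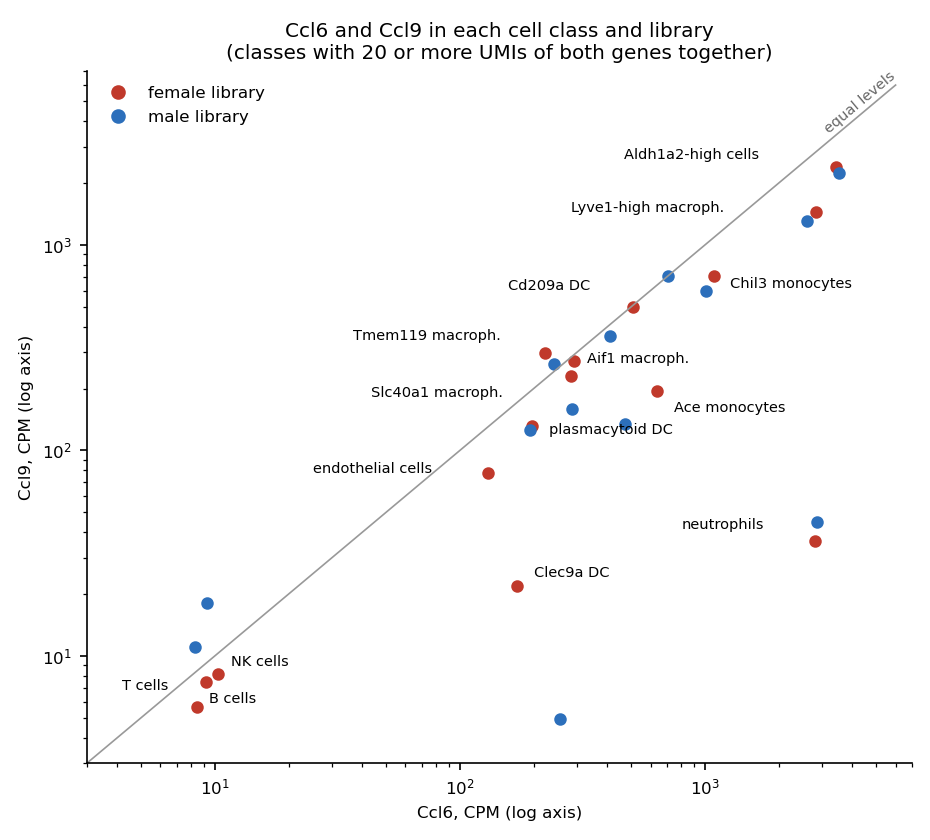
Ccl9 against Ccl6 (both in CPM, log axes) for each class and library with 20 or more UMIs of the genes together; points are coloured by library. Most myeloid classes lie along one band, and both neutrophil points lie far below it at 36.2 and 45.0 CPM of Ccl9. The Clec9a dendritic cell points also lie below the band, at 22.0 and 4.94 CPM of Ccl9.

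Ccl24 and Ccl8 were highest in Lyve1-high macrophages, the class that also held the Retnla-rich list of the Aldh1a2-high cells. Lyve1-high macrophages held Ccl24 at 593 CPM (500 to 697) in the female and 769 CPM (685 to 861) in the male library, with a UMI in 44 of 98 (44.9%) and 99 of 170 cells (58.2%). Other macrophages held 6.98 and 7.78 CPM, with a UMI in 1.10% and 2.66% of cells, although they were sequenced more deeply (medians of 3990 and 3522 UMIs, against 1735 and 1887). Lymphocytes gave 0.184% and 1.11%. The ratio of Lyve1-high to other macrophages was 84.9 (53.0 to 143) in the female and 98.8 (60.7 to 172) in the male library. The UMIs were spread over many cells, since 9 female and 21 male cells were needed to reach 50% of them.

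Aldh1a2-high cells held the second level of Ccl24, 355 CPM in the female and 184 CPM in the male library, but a few cells supplied most of it. A single female cell held 60 of the 101 UMIs and a single male cell 30 of the 79. A Ccl24 UMI was present in 22 of 86 and 24 of 101 of these cells (25.6% and 23.8%), so the libraries were closer in share than in level.

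Ccl8 was the rarest of the 7, with 16 UMIs in all female cells and 62 in all male cells. Lyve1-high macrophages held 6 UMIs in 4 female cells, or 24.5 CPM, and 43 UMIs in 22 male cells, or 109 CPM (78.7 to 147). Under a ceiling of 5% on the mitochondrial share of a cell, 3 UMIs and 23.0 CPM were left in the female and 8 UMIs and 40.3 CPM in the male library. Of the male UMIs outside macrophages, 11 were in T cells and 10 of these in 1 cell. Other macrophages held 5 UMIs in each library, and Lyve1-high macrophages exceeded them by 14.1 times (3.57 to 58.2) and 47.5 times (18.9 to 154). Among male Lyve1-high macrophages with a Ccl8 UMI, 14 of 22 also held Ccl24 (63.6%), close to the 57.4% among those with none.

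Genes of the IL-4 and IL-10 response were read beside these in the macrophages. Of the 7 genes, 4 were highest in Lyve1-high macrophages among the 3 classes in both libraries, against 20.8% of 8443 genes: Maf, a transcription factor of IL-10-producing macrophages, Mrc1, the mannose receptor of alternative activation, Stat6 and Il4ra. Maf was at 1443 and 2070 CPM there, at 77.4 and 163 CPM in Aldh1a2-high cells and at 608 and 582 CPM in other macrophages. Mrc1 was at 1414 and 1865 CPM in Lyve1-high macrophages, 398 and 382 CPM in Aldh1a2-high cells and 241 and 231 CPM in other macrophages. Stat6 was at 106 and 127 CPM in Lyve1-high, 88.0 and 83.9 CPM in Aldh1a2-high and 55.5 and 56.8 CPM in other macrophages, and Il4ra at 57.2 and 68.3, 24.6 and 9.32, and 47.1 and 53.6 CPM in the same order. Stat3 was highest in Aldh1a2-high cells (130 and 158 CPM, against 127 and 134 CPM in Lyve1-high macrophages), and the receptor chains Il10ra (127 and 134 CPM) and Il13ra1 (68.4 and 56.3 CPM) in other macrophages. For these 3 genes and for Stat6 and Il4ra the counting intervals of the highest class and the next overlapped in both libraries, so that only Maf and Mrc1 were resolved.

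Ccl12 had the opposite distribution. It was found in the other macrophages, with 69.5 CPM (60.1 to 79.8) in the female and 156 CPM (140 to 173) in the male library, and with a UMI in 86 of 638 (13.5%) and 83 of 527 cells (15.8%). Slc40a1 macrophages held 69.1 and 225 CPM, Aif1 macrophages 85.1 and 163 CPM and Tmem119 macrophages 63.0 and 108 CPM, and the ranges of neighbours in this order overlapped. Lyve1-high macrophages were at 28.6 and 40.5 CPM and Aldh1a2-high cells at 14.1 and 9.32 CPM. Relative to other macrophages these are 0.412 (0.163 to 0.865) and 0.260 (0.147 to 0.428) for Lyve1-high and 0.203 (0.0547 to 0.527) and 0.0599 (0.0162 to 0.155) for Aldh1a2-high cells. Monocytes held 3 and 2 UMIs, lymphocytes 11 and 4, and neutrophils and mast cells none in either library. Macrophages supplied 90.5% of the female and 97.6% of the male Ccl12 UMIs while making up 22.3% and 32.6% of the cells, and without the Aldh1a2-high cells the shares of UMIs were 88.8% and 96.5%.

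Ccl2 was highest in mast cells, a class of 24 female and 6 male cells. Mast cells held 43 UMIs in 11 female cells, or 612 CPM (443 to 824), and 26 UMIs in all 6 male cells, or 1633 CPM (1067 to 2393). The top cell held 18 of the female and 17 of the male UMIs. The mast cell list (Cpa3, Mcpt4, Kit and others) had UMIs for 10 of 10 genes in both libraries, summing to 52292 and 39882 CPM. The macrophage list had UMIs for 4 of 10 genes, summing to 1352 and 1256 CPM, and Adgre1, Mertk, Cd68 and Ms4a7 were at 0 in both. The early response list (Fos, Jun and NF-kB genes, which also rise in tissue digestion) summed to 2861 and 10991 CPM in mast cells. Their median mitochondrial share was 5.2% and 6.26%, and the adrenal endocrine list (free RNA) summed to 655 and 879 CPM. The part of these in the Ccl2 level was not tested. With the chemokine genes left among the clustering features the mast cell class grew to 54 and 26 cells with the same Ccl2 UMIs, and its level was 256 and 369 CPM, still the highest. Without the 5 cells richest in Ccl2 of each class and library, female mast cells held 215 CPM, from 9 UMIs in 19 cells. Female Lyve1-high macrophages then held 21.8 CPM. In the male library 1 mast cell with 1 UMI was left, at 833 CPM against 57.8 CPM in Lyve1-high macrophages, which is too little to order the classes.

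Among macrophages the Lyve1-high group held Ccl2 at 89.9 CPM (56.4 to 136) in the female and 127 CPM (93.9 to 167) in the male library, and Aldh1a2-high cells held it at 127 and 86.2 CPM. Slc40a1 macrophages were at 55.3 and 71.9 CPM, Tmem119 macrophages at 40.1 and 21.9 CPM and Chil3 monocytes at 38.5 and 20.0 CPM. Lymphocytes held 0.773 and 1.86 CPM. Neutrophils held no Ccl2 UMI in either library.

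Ccl7 was seen in few cells. Lyve1-high macrophages held 18 UMIs in 4 female cells, of which 1 held 14, and 30 UMIs in 17 male cells, which gives 73.6 and 75.9 CPM. Slc40a1 macrophages held 54 UMIs in 10 female cells and 45 UMIs in 9 male cells, of which 1 held 24, or 62.2 and 70.3 CPM. Mast cells held 5 UMIs in 2 of 24 female cells, or 71.2 CPM, and none in the male library. Aldh1a2-high cells, which were as high as Lyve1-high macrophages in Ccl2, held 0 and 2 Ccl7 UMIs. In Slc40a1 macrophages the share of cells with Ccl7 was 5.26% and 7.26%, and 92.1% and 93.5% of all Ccl7 UMIs were in macrophages (92.1% and 91.3% without the Aldh1a2-high cells).

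**Figure D3:**
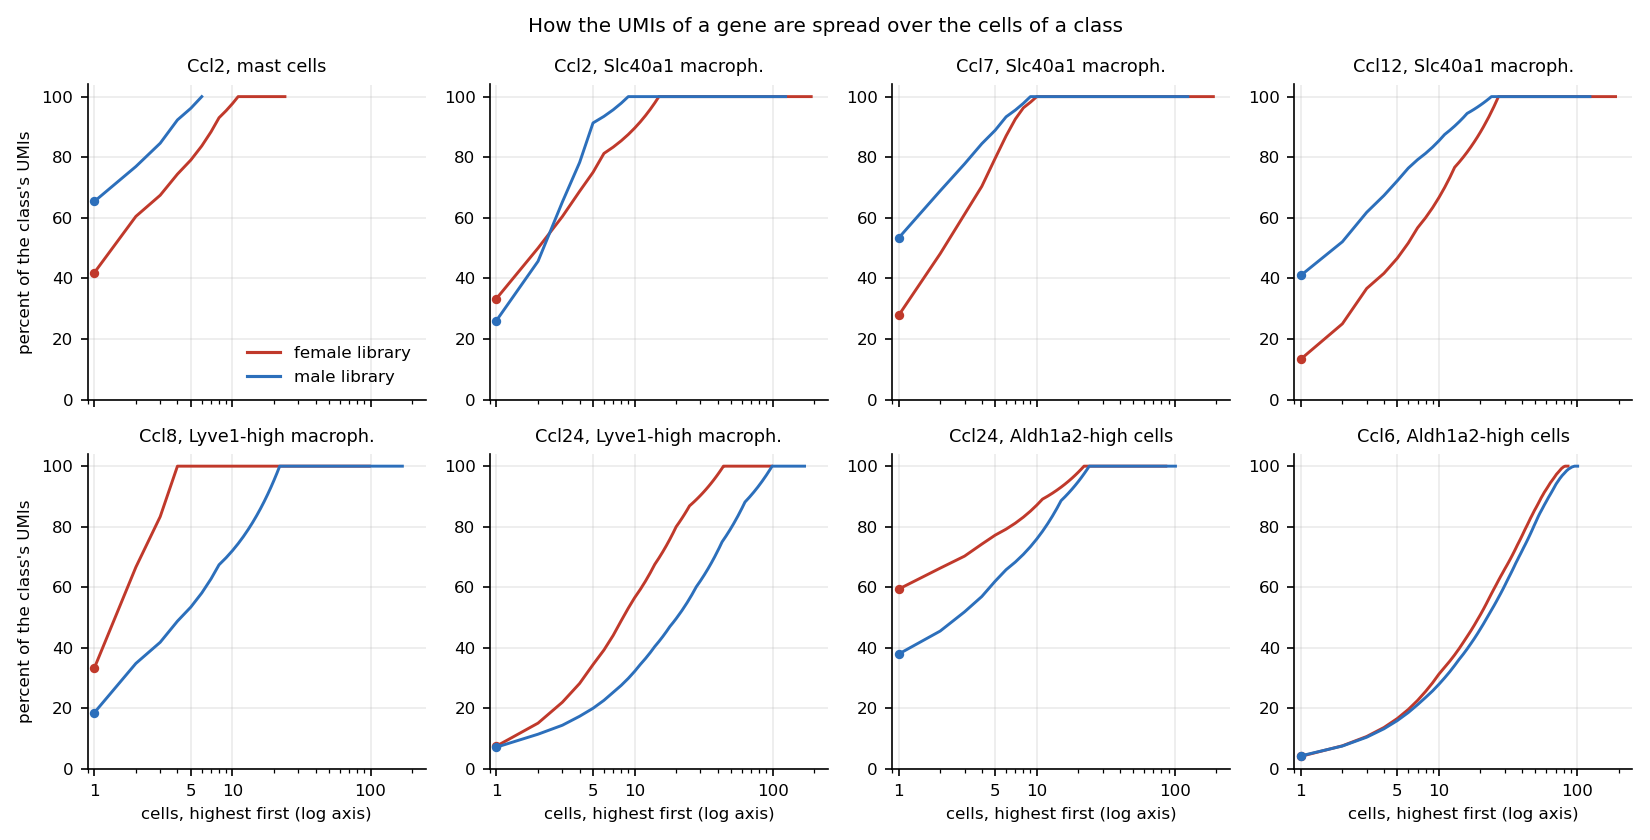
Percent of a gene's UMIs in a class (vertical axis) held by its highest cells (horizontal log axis, number of cells from the highest down), for each gene in the class or classes named in the panel title, with one line per library. Ccl6 in Aldh1a2-high cells and Ccl24 in Lyve1-high macrophages climb slowly over many cells, whereas Ccl7 and Ccl12 climb in steps: 2 of the 24 male Slc40a1 macrophages with Ccl12 held 50% of its UMIs.

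Ccl2 and Ccl7 tended to be found in the same cells. Of the macrophages with a Ccl7 UMI, 10 of 23 female (43.5%) and 17 of 32 male (53.1%) also held Ccl2. Of those with no Ccl7 UMI, 8.01% and 6.14% held Ccl2. The median depths of cells with both genes were 4329 and 2654 UMIs, against 3670 and 2900 for all macrophages. In other macrophages alone the shares were 8 of 19 (42.1%) and 7 of 14 (50%), and in Lyve1-high macrophages 2 of 4 and 10 of 17. Aldh1a2-high cells had too little Ccl7 to be read, with a UMI in 0 female cells and 1 male cell. Ccl12 also tended to be found with these genes in macrophages. Of those with Ccl12, 19.4% and 20.2% held Ccl2, against 7.68% and 6.39% of those without. Cells with both Ccl2 and Ccl12 were deeper, with medians of 6812.5 and 5449 UMIs. Of those with Ccl7, 30.4% and 28.1% held Ccl12, against 10.8% and 11.1% of those without.

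The 16 early response and NF-kB genes were then read in cells with and without each of Ccl7, Ccl2 and Ccl12. At 1000 UMIs drawn per cell, macrophages with Ccl7 held a mean of 4.78 UMIs of the list in the female and 4.21 in the male library, against 1.64 and 2.12 in those without. For Ccl2 the means were 3.01 and 5.00 against 1.61 and 1.96, so the means were higher in cells with either gene in both libraries. The medians were 4 against 1 and 2 against 1 for Ccl7, but 1 against 1 for Ccl2 in the female library and 2 against 1 in the male. Within other macrophages alone the Ccl2 means were 2.40 and 3.58 against 1.39 and 1.23, with medians of 1 against 1 and 1.5 against 1. Within Aldh1a2-high cells the Ccl2 means were 4.58 and 8.13 against 3.27 and 5.34. Within male Lyve1-high macrophages the Ccl7 means were both 3.0, with medians of 1.5 in cells with Ccl7 and 2 in those without. For Ccl12 the means were closer, 1.83 and 2.05 against 1.72 and 2.22, and within other macrophages alone 1.63 and 1.96 against 1.45 and 1.23. As digestion at 37 °C for 30 minutes preceded the sort, induction during preparation cannot be told apart from the state in the tissue, and its part in the Ccl2 and Ccl7 levels was not tested.

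Read over all genes, 6 of the 7 chemokines (all but Ccl12) were 2-fold or more higher in Lyve1-high than in other macrophages in both libraries, against 7.7% of the 8113 genes with enough UMIs. Ccl6 was 11.2 and 8.75 times and Ccl9 5.31 and 5.07 times higher. The Ccl2 and Ccl7 calls rested on single female cells, which held 12 of 22 and 14 of 18 UMIs. Without the richest cell of each library and class, 3 of the 6 with enough UMIs passed (Ccl24, Ccl6 and Ccl9), against 5.81% of 7760 genes, and the female ratios were 1.18 (0.551 to 2.27) for Ccl2, down from 2.13, and 0.664 (0.176 to 1.77) for Ccl7, down from 2.42, in the opposite direction. Other measures also differed between these classes. Lyve1-high macrophages had a median mitochondrial share of 5.48% and 5.78%, against 2.94% and 2.81% in other macrophages, held the adrenal endocrine list (free RNA) at 405 and 380 CPM against 223 and 185 CPM, and held the early response list at 2440 and 3325 CPM against 1450 and 1389 CPM. The dendritic cell list (11 genes) summed to 711 and 1144 CPM in Lyve1-high macrophages and 831 and 811 CPM in Aldh1a2-high cells, against 86.4 to 152 CPM in the groups of other macrophages. Of its genes 9 and 8 had UMIs in Lyve1-high macrophages and 5 and 8 in Aldh1a2-high cells, while 7 to 9 did in the groups of other macrophages. The neutrophil list (7 genes) summed to 319 and 509 CPM in Lyve1-high macrophages and 80.9 and 72.2 CPM in Aldh1a2-high cells, against 34.9 to 654 CPM. The part of these in the ratios was not tested. In Aldh1a2-high cells 4 of the 6 with enough UMIs passed (Ccl2, Ccl24, Ccl6 and Ccl9), against 7.86% of 8077 genes, with ratios of 13.4 and 11.8 for Ccl6 and 8.78 and 8.73 for Ccl9. The Ccl2 call rested on 1 female cell with 17 of the 36 UMIs, and without the richest cell of each library and class 3 of 6 passed (Ccl24, Ccl6 and Ccl9), against 6.54% of 7758 genes. Ccl2 then fell just short, with a female ratio of 1.92 (1.11 to 3.15), down from 3.00, and a male ratio of 2.49 (1.56 to 3.92). The early response list was at 3519 and 4898 CPM in these cells, and its part was not tested. In monocytes 1 of 5 passed, against 7.02% of 8385 genes: Ccl6, at 3.92 and 2.94 times the level of other macrophages.

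Female and male mice were then compared within macrophages, since the adrenal gland is organised differently in the sexes. In all macrophages 1 of the 7, Ccl8, was past 2-fold, against 1.92% of 8443 genes, and at a fold of 1.5 Ccl12 and Ccl24 passed as well, 3 of 7 against 8.17%. Its level was 3.24 CPM (11 UMIs) in female and 16.3 CPM (49 UMIs) in male macrophages, a female to male ratio of 0.199 (0.0933 to 0.388). With both libraries weighted to the same makeup of macrophage clusters the ratio was 0.300. Within Lyve1-high macrophages it was 0.225 (0.0784 to 0.532), from 6 and 43 UMIs, below the 50 UMIs set for a call. Under the mitochondrial ceiling of 5% the ratios were 0.491 (0.166 to 1.33) in all macrophages, from 20 UMIs, and 0.571 (0.0976 to 2.38) in Lyve1-high macrophages, from 11.

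Ccl12 was at 61.9 CPM (210 UMIs) in female and 120 CPM (360 UMIs) in male macrophages, a ratio of 0.517 (0.434 to 0.615). In other macrophages the ratio was 0.446 (0.373 to 0.533), past 2-fold, where 1 of the 5 chemokines with enough UMIs and 1.89% of 7666 genes were. Each group showed the same direction, with 0.307 (0.223 to 0.418) in Slc40a1, 0.586 (0.437 to 0.783) in Tmem119 and 0.522 (0.362 to 0.745) in Aif1 macrophages. The share of other macrophages with a Ccl12 UMI differed less, 13.5% (10.9 to 16.4) against 15.8% (12.7 to 19.1). Rich cells held a larger part of the male UMIs. In the male library 7 cells with 10 or more UMIs held 162 of the 340 UMIs (47.6%), and in the female library 3 such cells held 39 of 199 (19.6%). Without the 5 richest cells of each library and class the ratio was 0.539, and with 1000 UMIs drawn per cell 0.557, both short of 2-fold. Under the mitochondrial ceiling of 1.2%, which leaves 31 Ccl12 UMIs, it was 3.43 (1.55 to 8.15), in the opposite direction.

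**Figure D4:**
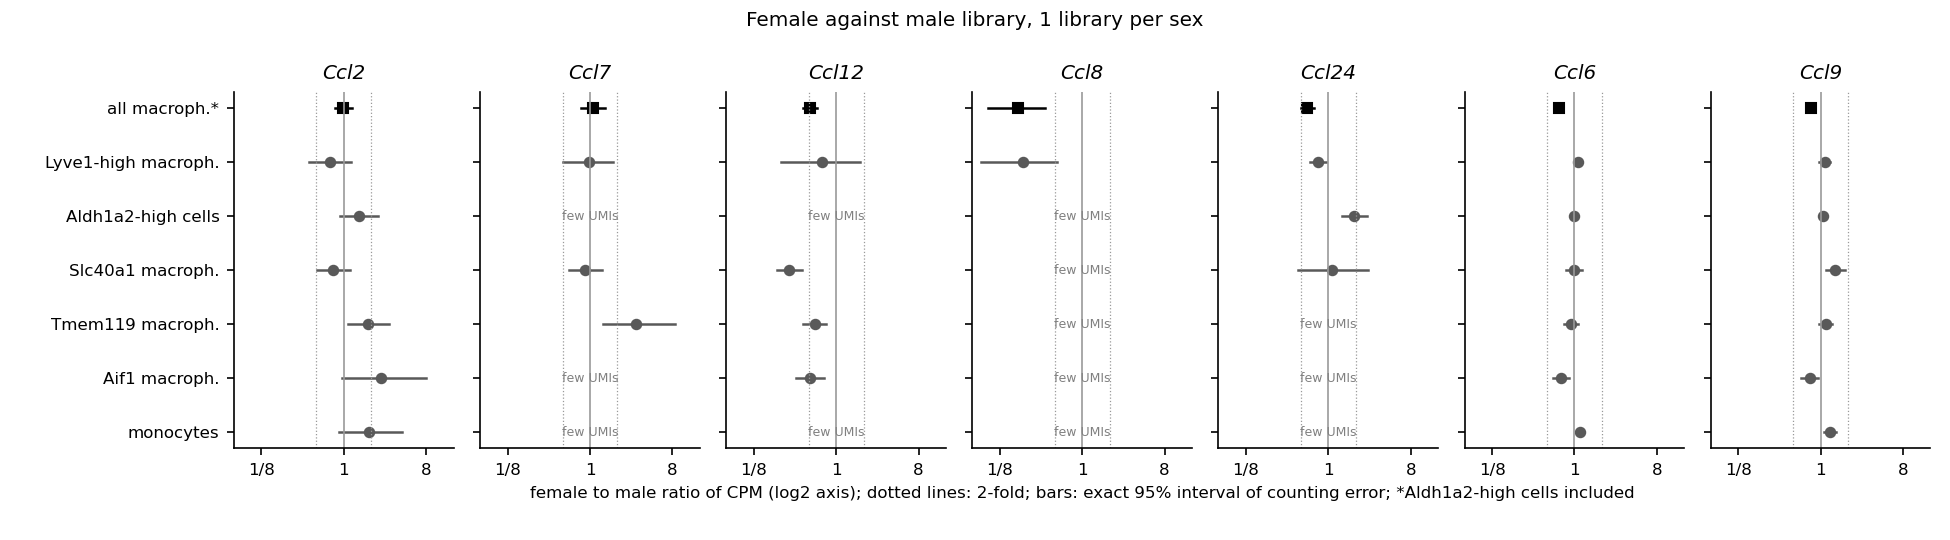
Female to male ratio of CPM for each chemokine (panels; log2 axis, dotted lines at 2-fold, bars for the exact 95% interval of counting error) in all macrophages, macrophage groups and monocytes, from 1 library per sex. Ccl6 and Ccl9 sit near 1 within the Lyve1-high and Aldh1a2-high classes, while Ccl12 lies below 1 in all 3 groups of other macrophages.

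Ccl24, Ccl6 and Ccl9 were lower in all female macrophages as 1 pool, with ratios of 0.589 (0.503 to 0.690), 0.669 (0.634 to 0.705) and 0.789 (0.740 to 0.841). The male library held more Lyve1-high macrophages and Aldh1a2-high cells, 170 and 101 of 798 against 98 and 86 of 822. With both libraries weighted to the same makeup, the ratios were 1.01 for Ccl24, 0.984 for Ccl6 and 1.08 for Ccl9. Without the Aldh1a2-high cells the pooled ratios were 0.426 for Ccl24, 0.707 for Ccl6, 0.875 for Ccl9, 0.480 for Ccl12, 0.19 for Ccl8, 0.956 for Ccl2 and 1.04 for Ccl7, so that Ccl24 and Ccl12 joined Ccl8 past 2-fold, 3 of 7 against 1.89% of 8113 genes. In Lyve1-high macrophages 0 of 4 chemokines with enough UMIs were past 2-fold, against 2.69% of 2044 genes, and the ratios were 0.771 (0.628 to 0.942) for Ccl24, 1.10 (0.994 to 1.21) for Ccl6 and 1.11 (0.967 to 1.27) for Ccl9. In Aldh1a2-high cells 0 of 4 were, against 1.24% of 2181 genes, with 0.976 (0.899 to 1.06) for Ccl6 and 1.07 (0.965 to 1.18) for Ccl9. Ccl24 stood at 1.93 (1.42 to 2.63) there, and at 1.16 without the 5 richest cells. When each cell was gated on its own markers it was 0.25, in the opposite direction.

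Ccl2 and Ccl7 gave ratios of 0.985 (0.792 to 1.23) and 1.08 (0.806 to 1.46) in all macrophages, both with intervals that include 1. In Tmem119 macrophages both were higher in the female library, Ccl2 by 1.83 times (1.10 to 3.15) and Ccl7 by 3.18 times (1.38 to 8.56). For Ccl2 a single female cell held 20 of the 56 UMIs. The Ccl7 ratio came from 31 and 7 UMIs, too few for a call, and 1 female cell held 15 of them. Monocytes had enough UMIs for 2 genes, and 0 were past 2-fold, against 1.9% of 4098 genes. Ccl6 was at 1003 and 876 CPM in monocytes, a ratio of 1.15 (1.03 to 1.28), and Ccl9 at 611 and 482 CPM, a ratio of 1.27 (1.10 to 1.46).

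The study separates adrenal gland macrophages by MHC class II. An Otsu threshold was set over all macrophages, Lyve1-high and Aldh1a2-high cells included, with the libraries weighted equally. Other macrophages were then split at this threshold. It was 9 UMIs of the invariant chain gene Cd74 and of H2-Aa, H2-Eb1 and H2-Ab1 per 1000 drawn, with shallower cells left out. This gave 164 low and 465 high cells in the female and 17 low and 505 high cells in the male library. Of the 5 chemokines with enough UMIs, 2 were 2-fold or more higher in low cells in both libraries, against 0.797% of 7654 genes. Ccl2 was at 84.7 against 26.6 CPM in the female and 340 against 22.7 CPM in the male library, ratios of 3.18 (2.19 to 4.64) and 15 (8.70 to 25.1). Ccl7 was at 64.8 against 18.1 CPM and 163 against 18.5 CPM, ratios of 3.59 (2.30 to 5.63) and 8.82 (4.07 to 17.6).

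These ratios rested on few cells. Ccl2 UMIs were in 16 female and 4 male low cells, and Ccl7 UMIs in 9 and 2. The 5 richest cells held 79.7% of the female and all of the male Ccl2 UMIs of the low group, and without the 5 richest of each group the female ratio was 1.05 (0.509 to 2.03). With only 4 low cells holding Ccl2, this could not be asked in the male library. The early response list was also higher in low cells, by 1.19 (1.11 to 1.27) and 2.11 (1.81 to 2.44) times, and its part in the ratios was not tested. Between the lowest and highest tertile of MHC class II, Ccl2 gave 7.22 and 6.28 and Ccl7 9.32 and 0.567. In Slc40a1 macrophages, with 33 low cells in the female library and 10 in the male, the ratios were 13.9 (7.17 to 28.6) and 10.0 (5.37 to 18.7) for Ccl2 and 41.3 (17.6 to 118) and 3.54 (1.62 to 7.16) for Ccl7, and the early response list was higher in their low cells by 2.34 and 1.86 times. The 5 richest low cells held 87.5% of the female and all of the male Ccl7 UMIs of this low group. Between the tertiles the male Ccl7 ratio in Slc40a1 macrophages was 0.444 (0.212 to 0.881), from 13 and 29 UMIs, in the opposite direction. Tmem119 macrophages, which held 102 of the 164 female low cells, differed from this. There Ccl7 had 0 UMIs in low and 31 in high cells of the female library, a ratio of 0 (0 to 0.211), and Ccl2 gave 1.61 (0.914 to 2.84), while the early response list was lower in low cells (0.788). In female Aif1 macrophages Ccl2 gave 0.722 (0.0801 to 3.10) from 29 low cells. The male library had only 5 and 2 low cells in these groups. Ccl12 gave 1.38 (1.01 to 1.87) and 1.36 (0.737 to 2.32) in other macrophages. Ccl6 gave 0.750 (0.624 to 0.897) in the female and 1.25 (0.804 to 1.87) in the male library, and Ccl9 1.18 (1.01 to 1.38) and 0.567 (0.271 to 1.05). The male values, from 25 and 10 UMIs in low cells, were not resolved from 1.

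The receptors of these ligands were read in the same classes. Of the 8 receptors described, Ccr2, Ccr1 and Ccrl2 had over 100 UMIs in each library. Ccr2, the receptor of Ccl2, Ccl7 and Ccl12, was highest in Chil3 monocytes (1339 and 1599 CPM) and Aldh1a2-high cells (1418 and 1491 CPM). It was at 719 and 1158 CPM in Cd209a dendritic cells, 947 and 762 CPM in innate lymphoid cells, 777 and 683 CPM in Lyve1-high macrophages and 184 and 128 CPM in other macrophages. Ccr1, through which Ccl6 and Ccl9 act, was highest in neutrophils (628 and 495 CPM), the class with abundant Ccl6 and little Ccl9, and was at 226 and 200 CPM in Tmem119 macrophages.

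The Ccl24 receptor Ccr3 had 17 UMIs in all female and 7 in all male cells, and the Ccl8 receptor Ccr8 18 and 5. No eosinophil cluster was found among the named classes, so a cell class bearing Ccr3 at depth was not analysed here. The atypical receptors Ackr1, Ackr2 and Ackr4, which take up chemokines without signalling, had 3, 8 and 1 UMIs in the female and 0, 2 and 1 in the male library. Ccrl2, which presents ligands without signalling, reached 205 and 56.2 CPM in neutrophils.

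**Figure D5:**
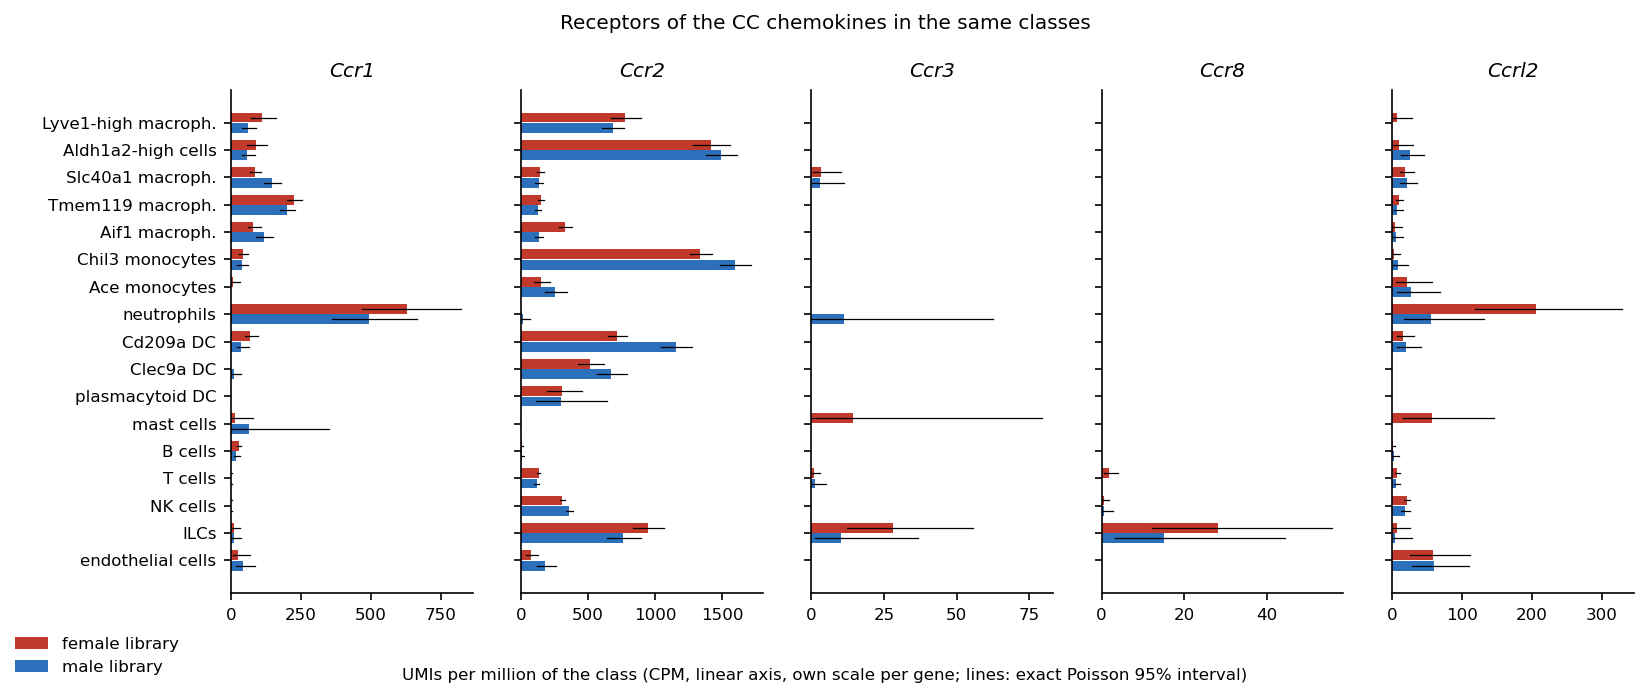
Level of the chemokine receptors (one panel per receptor; linear axis in CPM with its own scale, lines for exact Poisson 95% intervals) in the same cell classes of both libraries. Ccr2 peaks in Chil3 monocytes and Aldh1a2-high cells (1339 to 1599 CPM) and Ccr1 in neutrophils (628 and 495 CPM).

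To see which genes shared each pattern, log2(CPM + 10) was correlated over the 34 points formed by 17 classes in 2 libraries, among 8567 genes with at least 200 UMIs. These are descriptions, since points of a library share its depth and each class occurs in both libraries. Ccl2 was most like Mitf (Pearson r = 0.902), a factor that drives mast cells, Pdxk (0.856) and Gch1 (0.796). Ccl7 was most like Paox (0.80), Abca1 (0.783), the cholesterol exporter, and Ltc4s (0.775), the leukotriene C4 synthase. Ccl12 was most like G530011O06Rik (0.918), Kcnj10 (0.906) and C3ar1 (0.882), the complement C3a receptor. Ccl8 was nearest to Fcna (0.911), Cd209g (0.895) and Folr2 (0.865), and Ccl24 to Fcrls (0.858), Retnla (0.856) and Gfra2 (0.839). Fcna, Folr2, Fcrls and Retnla are among the markers that named the macrophage classes, so their likeness is partly set by the naming. Ccl6 was nearest to Rab31 (0.906), Adam15 (0.896) and Tgfbi (0.890), and Ccl9 to Abca9 (0.881), Pid1 (0.87) and Daglb (0.869). Between the chemokines themselves the highest value was 0.766, for Ccl6 and Ccl9, and Ccl8 and Ccl12, which are neighbours on chromosome 11, gave 0.297. In the same group on chromosome 11, Ccl7 gave 0.576 with Ccl2, 0.564 with Ccl12 and 0.540 with Ccl8. Ccl2 gave 0.265 with Ccl12 and 0.253 with Ccl8.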

How the data were processed

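Single-cell RNA sequencing (10x 3′ chemistry 3.1) was made from CD45+ cells sorted from adrenal glands of 7-week-old female and male mice, 1 library each. The deposited values are raw UMI counts of each gene in each barcode. According to the labels and the study's methods, the authors aligned and counted the reads with Cell Ranger 4.0.0 (build mm10, cDNA read of 55 bases) and removed noise barcodes from the rank curve with DropletUtils 1.4.3. The files held 3963 female and 2685 male barcodes, with 16218309 and 9512670 UMIs and at least 500 UMIs each.

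Barcodes with at least 200 genes and at most 15% mitochondrial UMIs were kept (3817 and 2502). The study states a ceiling of 1.2%. On the percent scale used here only 333 female and 366 male barcodes (8.40% and 13.6%) meet it. These are far fewer than the cells that the study states were left after all its filters. The 1.2% ceiling used here is therefore not the filter that the study applied, and the scale of the study's ceiling is not known. It was used only as an alternative, and values given under it are not values under the study's own filter. Scrublet in scanpy 1.11.5 scored doublets within each library; because its automatic threshold marked only 2 and 10 barcodes, the highest scores were marked at 0.8% per 1000 barcodes, which removed 124 and 52. Clustering followed the study's scheme in Seurat 5.3.0 (SCTransform with mitochondrial share regressed out, integration on 2000 features, 20 principal components, resolution 1), with 104 chemokine, receptor, MHC class II, sex-linked, early response and endocrine genes held out. Of 22 clusters, 20 were named, each from at least 3 raised markers. The 2 unnamed clusters, 1 shallow and 1 proliferating, enter no comparison. The rebuilt names may differ from those of the study.

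UMI counts were summed per library and class. CPM was computed over all UMIs of the class. The design is 1 library per sex, so no test was made and the intervals were computed with scipy 1.17.1. Named genes are the 7 chemokines, the receptor, early response and IL-4 and IL-10 response lists, and for each chemokine the 3 genes most like it. A gene of the receptor list is not reported here. The chemokines and lists were chosen with earlier results of these data known, and the scoring of cluster names and the tags Tmem119, Slc40a1, Aif1, Chil3, Ace, Cd209a and Clec9a were set after the clusters were seen. Alternatives covered the mitochondrial ceiling, per-cell gating, resolution, held-out genes, doublets, scaling, richest cells and UMI draws; those added after seeing the data left out the Aldh1a2-high cells for the ratios and for the count, the richest cells for the MHC class II split, the richest cell for the Lyve1-high and Aldh1a2-high calls, which were also read under the settings used for levels, and the minimum of 5 cells for the highest class. The script for fold calls was tested on simulated data. Promoter sequences are from RefSeq on GRCm38.p6, and gene positions from GENCODE on GRCm38.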

Additional observations from a re-analysis of the deposited data

Results flagged for a closer look

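For 4 chemokines, classes moved in opposite directions between the sexes, with counting intervals on either side of 1, and the difference between classes was not tested. For Ccl2 the female to male ratio was 1.83 in Tmem119 macrophages (56 and 22 UMIs) and 0.375 in mast cells (43 and 26 UMIs, the latter from 6 male cells). A single female Tmem119 macrophage held 20 of the 56 UMIs, and single mast cells held 18 of the 43 female and 17 of the 26 male UMIs. For Ccl24 it was 1.93 in Aldh1a2-high cells and 0.771 in Lyve1-high macrophages, and 1 female Aldh1a2-high cell held 60 of 101 UMIs. The Aldh1a2-high ratio of Ccl24 fell toward equality without the richest cells and turned to the opposite direction under per-cell gating, as given above. For Ccl9 it was 1.44 in Slc40a1 macrophages (200 and 102 UMIs) and 0.707 in Cd209a dendritic cells (274 and 248 UMIs), with Chil3 monocytes (1.18) on the side of the former and Aif1 macrophages (0.761) on that of the latter. For Ccl6 it was 1.15 (1.03 to 1.28) in monocytes, the Chil3 and Ace groups together, against 0.714 (0.582 to 0.874) in Aif1 macrophages and 0.721 (0.605 to 0.859) in Cd209a dendritic cells, and the intervals of both monocyte groups taken alone included 1.

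Chemokine UMIs were also found in the 2 clusters without a name, which the comparisons do not use. The shallow cluster (66 female and 139 male cells, medians of 781.5 and 669 UMIs, with 7 of 10 macrophage markers raised) held Ccl6 at 309 CPM in the female and 165 CPM in the male library, Ccl9 at 173 and 146 CPM, and Ccl2 at 64 CPM in the male library from 7 UMIs. The proliferating cluster (31 and 14 cells) held Ccl6 at 13.5 and 184 CPM and Ccl9 at 27 and 88.8 CPM. All but one of these values had intervals above those of lymphocytes; the female Ccl6 value of the proliferating cluster, from 5 UMIs (4.39 to 31.6), did not differ from the 9.49 CPM of lymphocytes beyond counting error.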

How the results depend on the processing

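No paired analysis was possible because each sex was 1 library. The class with the highest level was kept by 6 or 7 of the 7 chemokines under 11 of the 12 alternatives, and by 3 under the mitochondrial ceiling of 1.2%, where Ccl2, Ccl7, Ccl8 and Ccl24 moved. There Lyve1-high macrophages had 6 female and 2 male cells, under the minimum of 5; with no minimum they were highest for Ccl7, Ccl8 and Ccl24, from 1, 2 and 10 UMIs. No male mast cell was left. For Ccl2 the class changed at ceilings of 10% and 5%, without the 5 richest cells and at 1000 UMIs drawn only because fewer than the 5 male mast cells required were left (4, 3, 1 and 4). With no minimum of cells mast cells were highest in each, though without the 5 richest cells the male value came from 1 UMI. At resolution 0.6 there was no mast cell class. For Ccl7 mast cells became highest under the mean of each cell's CPM (181 and 0 CPM, from 5 and 0 UMIs). They were also highest for Ccl7 at 1000 UMIs drawn with no minimum of cells (167 and 0 CPM, from 3 and 0 UMIs). The count of chemokines 2-fold higher in Lyve1-high than in other macrophages, 6 in the report, was 3 without the richest cell, without the 5 richest cells and at 1000 UMIs drawn (Ccl24, Ccl6 and Ccl9 each time), 2 at the 1.2% ceiling, where only 2 had enough UMIs, and 5 or 6 elsewhere. The female Ccl7 ratio there turned to 0.664 without the richest cell. The count of chemokines past 2-fold between the sexes in macrophages, 1 in the report (Ccl8), was 3 at a fold of 1.5 and without the Aldh1a2-high cells (Ccl12, Ccl8 and Ccl24 both times, against 8.17% and 1.89% of all genes), 2 with libraries weighted to the same makeup (Ccl12 and Ccl8, against 1.49%) and 0 with at least 100 UMIs (against 1.23%). It stayed 1 elsewhere, but the gene was Ccl12 at the 5% ceiling, Ccl2 at the 1.2% ceiling and Ccl24 without the 5 richest cells and at 1000 UMIs drawn. The Ccl12 ratio in other macrophages turned to 3.43 at the 1.2% ceiling. The cause was not tested. Of 144 sex ratios recomputed, 109 stayed inside the counting interval. Of 165 levels in the highest class 109 did, and 22 moved by over 1.5 times. Of 28 shares of cells with a UMI only 9 stayed inside, and of 18 MHC class II ratios 10 did. Ccl8 rested on the fewest UMIs of these chemokines, with 11 and 49 in macrophages.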
